A study of Homo sapiens with 27 samples.

Results

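The 28 genes described here serve cholesterol synthesis, uptake and efflux, and were followed in HepG2 cells, an established human hepatocellular carcinoma line that keeps many liver functions, after 48 h with 1 of 9 polycyclic aromatic hydrocarbons. The members were found as the array spots whose gene name, older gene name or transcript belongs to 1 of the 28 genes, which gave 44 probes, against 17728 named genes in the series. They are 18 enzymes of synthesis (ACAT2, HMGCS1, MVK, PMVK, MVD, IDI1, FDPS, FDFT1, SQLE, LSS, CYP51A1, TM7SF2, MSMO1, NSDHL, HSD17B7, EBP, SC5D and DHCR7), 4 genes of sterol sensing (SREBF2, SCAP, INSIG1 and INSIG2), 4 of uptake and transport (STARD4, NPC1, NPC1L1 and MYLIP) and the efflux pumps ABCA1 and ABCG1. The compounds were benzo[k]fluoranthene (BF), IND (indeno[1,2,3-c,d]pyrene), benzo[a]pyrene (BaP), phenanthrene (PH), chrysene (CHR), benzo[a]anthracene (BA), dibenzo[a,h]anthracene (DBA), 3-methylcholanthrene (3MC) and naphthalene (NP). Each compound had 3 Agilent arrays, 27 in all. An array held Cy5-labelled RNA of exposed HepG2 cells and Cy3-labelled RNA of HepG2 cells with DMSO, the solvent control. Every value below is a log2 ratio of compound over DMSO, unless a level is named. No doses are in the labels, and the comparisons are of the compounds as applied. The labels do not say whether the arrays of a compound come from separate cultures or share DMSO RNA, so p-values measure the spread between arrays, which may be technical. The dyes were not exchanged, and a dye bias of a gene would stay in its ratio. All 28 members passed the filter on dim spots on the platform shared by 8 compounds, and 26 passed on the platform of IND, where INSIG1 and ABCG1 were too dim to test.

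Cholesterol is built from acetyl-CoA through mevalonate, farnesyl diphosphate, squalene and lanosterol. When the endoplasmic reticulum is poor in sterols, the escort protein SCAP carries the transcription factor SREBP-2, the product of SREBF2, to the Golgi, where it is cut and released to activate genes of synthesis and uptake, and the INSIG proteins hold SCAP back when sterols are plentiful. Surplus cholesterol leaves the cell through ABCA1 and ABCG1, whose genes, like MYLIP, are targets of the oxysterol receptors of the LXR family. The liver is a major organ of cholesterol synthesis and uptake.

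The stretches around the starts of 6 members are shown because these genes carry the results: SREBF2 encodes the pathway's own transcription factor, HMGCS1, MVD, FDPS and LSS are enzymes with low ratios, and SCAP is a member that rose. Sequences are from RefSeq on GRCh38.p14 and run from 250 bases before to 50 bases after the start. Capitals mark CCAAT, the NF-Y box, on either strand (ATTGG when read on the other), and the SREBP site TCACNCCAC.
SREBF2 (chr22:41832855-41833154, plus strand): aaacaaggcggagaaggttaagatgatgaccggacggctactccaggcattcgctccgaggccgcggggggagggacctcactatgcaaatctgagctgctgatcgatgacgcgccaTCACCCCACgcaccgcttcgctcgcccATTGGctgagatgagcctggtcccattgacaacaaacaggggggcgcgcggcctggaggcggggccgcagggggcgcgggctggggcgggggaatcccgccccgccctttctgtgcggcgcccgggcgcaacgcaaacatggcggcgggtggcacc
HMGCS1 (chr5:43313363-43313662, minus strand): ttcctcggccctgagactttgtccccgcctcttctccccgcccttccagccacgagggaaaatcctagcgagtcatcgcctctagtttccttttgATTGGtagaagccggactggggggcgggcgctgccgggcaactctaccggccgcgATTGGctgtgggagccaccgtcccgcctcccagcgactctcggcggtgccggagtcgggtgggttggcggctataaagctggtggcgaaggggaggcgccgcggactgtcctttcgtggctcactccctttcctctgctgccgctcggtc
MVD (chr16:88663042-88663341, minus strand): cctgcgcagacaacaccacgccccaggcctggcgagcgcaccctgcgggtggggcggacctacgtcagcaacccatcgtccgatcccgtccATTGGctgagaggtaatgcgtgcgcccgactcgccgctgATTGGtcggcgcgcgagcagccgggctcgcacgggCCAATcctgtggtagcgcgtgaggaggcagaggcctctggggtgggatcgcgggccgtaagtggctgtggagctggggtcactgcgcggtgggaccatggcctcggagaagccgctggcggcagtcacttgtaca
FDPS (chr1:155308616-155308915, plus strand): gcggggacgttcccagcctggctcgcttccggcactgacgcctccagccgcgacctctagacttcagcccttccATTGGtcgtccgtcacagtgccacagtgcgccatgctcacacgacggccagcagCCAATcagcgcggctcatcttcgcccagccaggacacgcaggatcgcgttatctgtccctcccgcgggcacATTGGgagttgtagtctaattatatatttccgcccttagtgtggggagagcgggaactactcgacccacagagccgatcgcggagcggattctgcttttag
LSS (chr21:46228725-46229024, minus strand): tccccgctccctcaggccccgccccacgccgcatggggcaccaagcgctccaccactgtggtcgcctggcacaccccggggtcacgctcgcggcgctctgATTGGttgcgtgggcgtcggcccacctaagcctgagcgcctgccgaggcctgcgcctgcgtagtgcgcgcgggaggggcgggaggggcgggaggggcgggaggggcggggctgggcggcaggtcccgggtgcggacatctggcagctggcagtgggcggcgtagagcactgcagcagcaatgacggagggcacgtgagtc
SCAP (chr3:47475892-47476191, minus strand): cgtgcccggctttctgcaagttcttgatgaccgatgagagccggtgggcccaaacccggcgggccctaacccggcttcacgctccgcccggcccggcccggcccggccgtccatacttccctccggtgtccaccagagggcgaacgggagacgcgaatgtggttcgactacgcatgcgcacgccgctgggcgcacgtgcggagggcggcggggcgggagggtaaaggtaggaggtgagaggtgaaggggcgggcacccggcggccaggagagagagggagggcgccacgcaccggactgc
The table of starts held 24 of the 28 members in 30 windows, with no entry for FDFT1, SQLE, ACAT2 and ABCG1. The 4 motifs were searched on both strands. TCACNCCAC was found in 1 of the 24 members, SREBF2, and in 1.39% of the 27305 genes of the table. CCAAT was found in 18 of 24 members and 39.7% of all genes, and was absent from the SCAP window above. The SP1 box GGGCGG was found in 22 of 24 members against 48.3%, and GCGTG, the core of the site bound by the aryl hydrocarbon receptor, in 19 of 24 against 40.6%. HMGCS1 had another window (chr5:43313132-43313431), with 0 CCAAT and 2 GCGTG, against 2 and 0 in the window shown. These are matches of letters with no test, and the table's genes are of all kinds.

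The median Cy5 signal was 70.0 to 164 intensity units on the 9 arrays of DBA, 3MC and NP, which also had a file layout of their own, and 341 to 1535 on the other 18. Ranks of the DMSO levels over 14207 genes correlated at 0.631 to 0.778 between those 9 arrays and the others, at 0.947 to 0.993 within the 9 and at 0.777 to 0.997 within the 18. Log2 ratios of arrays of a compound correlated at 0.905 to 0.984, except that BA array 1 correlated with the other BA arrays at 0.176 and 0.126 while those correlated at 0.861. The aryl hydrocarbon receptor target CYP1A1 was at 0.58 on BA array 1 and at 6.25 and 6.23, with saturated Cy5 spots, on BA arrays 2 and 3. Results for BA are therefore given with and without array 1. CYP1A1 rose with each compound except NP (0.47 ± 0.047, SD, n = 3; adjusted p = 0.537). In the DMSO channel 6 of 7 hepatocyte markers stood above background on all 27 arrays and HNF4A on 26, with ALB at a median of 5.67 log2 units above the array median. Of the markers of other cells, 0 of 2 endothelial, 0 of 2 leukocyte and 1 of 2 fibroblast genes (ACTA2, at 2.72) did so on all arrays, and VWF and CD68 did so on 26, at medians of -2.57 and 0.28.

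Members fell far more often than they rose. A member was called changed at an adjusted p under 0.05 in limma and at least 1.5-fold. Over 250 tests of a member with a compound 90 fell and 12 rose. Of all genes tested, 3.10% (BA) to 20.3% (BF) fell and 2.03% (BA) to 16.1% (BF) rose with a compound. BF and IND gave the highest counts of falls among the 9 compounds. With BF 20 of 28 members fell and 0 rose, against 20.3% and 16.1% (36.4% changed) of all 17420 genes tested, and the members' median was -1.07. With IND 18 of 26 fell and 0 rose, against 13.1% and 10.4% (23.6% changed) of 14431 genes, with a median of -1.11. By the adjusted p alone, with no fold threshold, 1 member was above DMSO with BF (INSIG2, at 0.19) and 0 with IND. That threshold called 12462 of 17420 genes with BF and 10588 of 14431 with IND, in either direction. In a bulk RNA ratio a lower level per cell and fewer cells with the transcript cannot be told apart.

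The other 7 compounds moved fewer members. BaP lowered 9 and raised 4 of 28 (10% and 15.1% of all genes, 25.1% changed; members' median -0.25). CHR lowered 7 and raised 1 (12.2% and 11.8%, 24% changed; median -0.20), and PH lowered 7 and raised 3 (7.92% and 10.6%, 18.5% changed; median -0.16). DBA lowered 8 and raised 0 (7.29% and 3.07%, 10.4% changed; median -0.12), NP lowered 8 and raised 2 (12.6% and 6.73%, 19.3% changed; median -0.25), and 3MC lowered 4 and raised 2 (7.49% and 3.67%, 11.2% changed; median 0.03). BA lowered 9 and raised 0 (3.10% and 2.03%, 5.13% changed; median -0.31), and without array 1 it lowered 13 and raised 0 (5.96% and 4.53% of all genes, 10.5% changed). With array 1 kept and BA array 2 or 3 left out, 4 members were called. At an unadjusted p under 0.05, with no fold threshold, 6 members were above DMSO with DBA and 2 with BA. All genes were not counted at that threshold. By the adjusted p alone these were 5 with DBA and 0 with BA. It called 7067 and 8261 of all 17420 genes, in either direction. The median over all genes lay between -0.01 and 0.04 for each compound. Leaving out BA array 1 from the fit changed no call of a member for the other 7 compounds of the shared platform.

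How the arrays were centred bears on these counts. With each array centred on its median in place of a loess curve, CHR changed 4 members and BA 1. BaP then lowered 4 and raised 5, PH lowered 4 and raised 4, DBA lowered 4 and raised 3, NP lowered 11 and raised 0 and BF lowered 15 and raised 1. CHR lowered 3 and raised 1, and BA lowered 1 and raised 0. Of all 17420 genes, 1340 fell and 3579 rose with BaP, 1375 and 1889 with PH, and 657 and 1619 with DBA. For NP these counts were 3022 and 618, for BF 3242 and 4289, for CHR 2007 and 2550, and for BA 1224 and 1055. Falls among members with CHR and BA were then no more frequent than among all genes. Calls gained were TM7SF2 with BaP, SCAP, NPC1 and NPC1L1 with DBA and INSIG1 with PH, which rose, INSIG2 with BF, which rose (0.75), and IDI1, TM7SF2 and SC5D with NP, which fell. The calls that this ended kept their sign: with BaP SQLE, MSMO1, DHCR7, ACAT2 and ABCA1, with DBA IDI1, SQLE, CYP51A1 and ACAT2, with 3MC SQLE, with NP MVD and SCAP, with CHR HMGCS1, EBP, DHCR7 and SREBF2, with PH FDPS, SQLE and ACAT2, with IND CYP51A1, with BF TM7SF2, SC5D, NPC1, NPC1L1 and ABCA1, and with BA those of all its members but MVD. Among all genes called, the share that fell moved under that centring from 39.9% to 27.2% with BaP, from 70.4% to 28.9% with DBA, from 65.2% to 83.0% with NP and from 55.8% to 43.0% with BF.

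**Figure D1:**
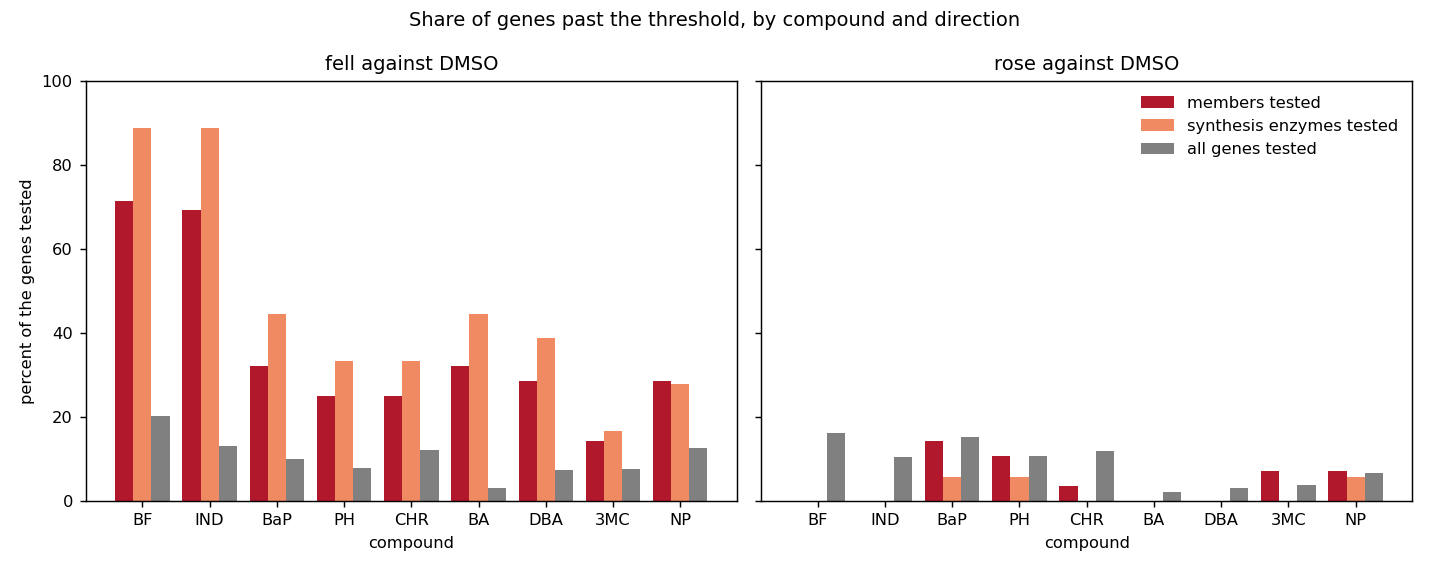
Share of members, of the 18 synthesis enzymes and of all genes tested (percent, y axis) that fell (left) or rose (right) with each compound against DMSO, at an adjusted p under 0.05 and 1.5-fold. With BF 20 of 28 and with IND 18 of 26 members fell, against 20.3% and 13.1% of all genes.

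**Figure D2:**
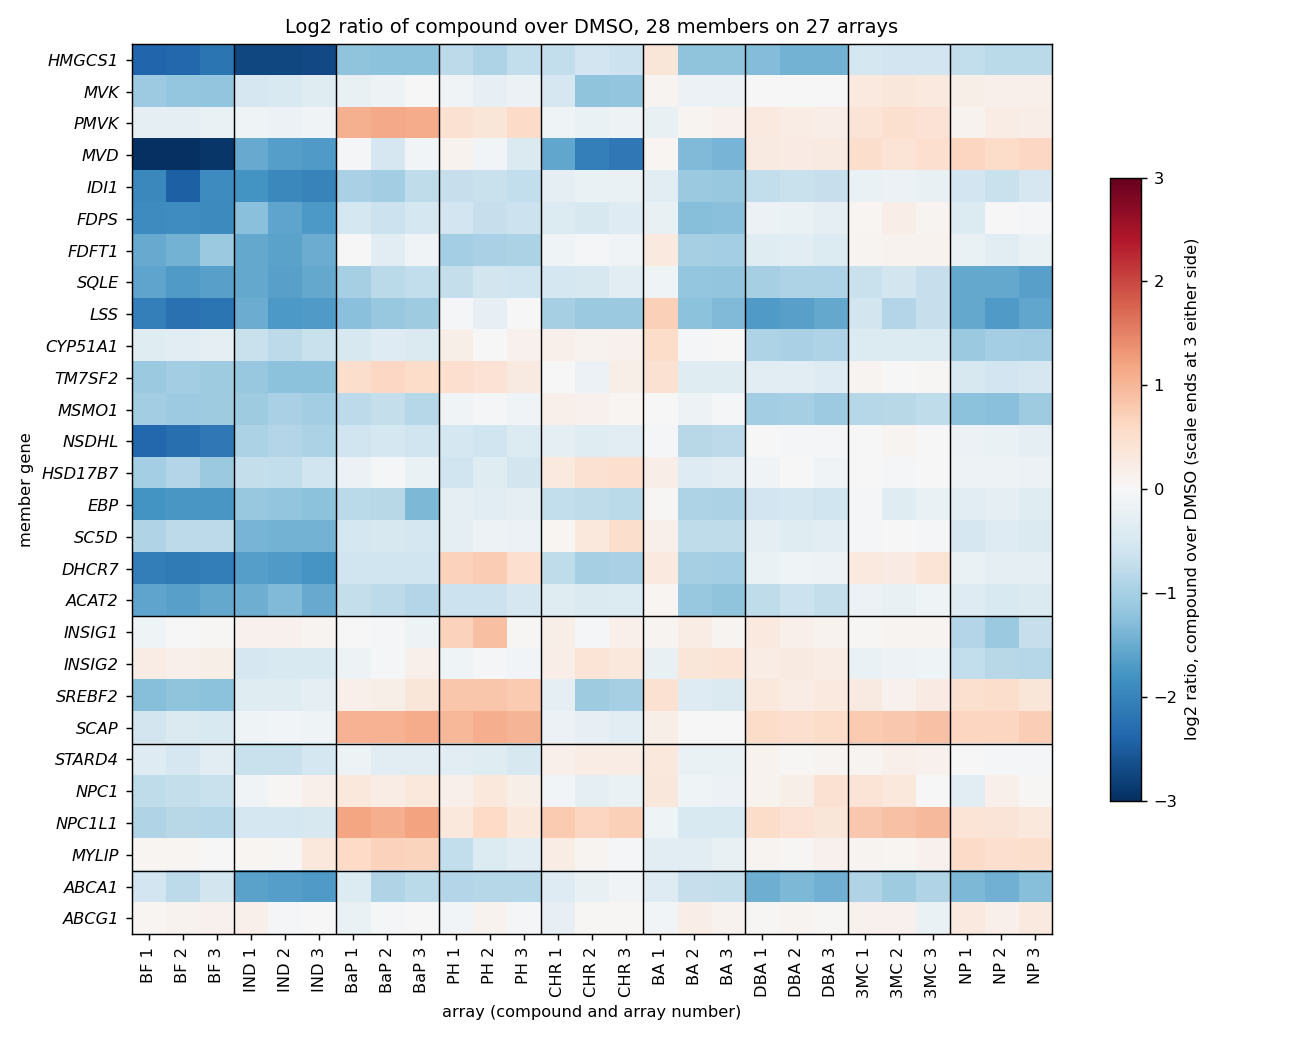
Log2 ratio of compound over DMSO (colour) for the 28 members (rows, in blocks of synthesis, sensing, uptake and transport, and efflux) on each of the 27 arrays (columns, grouped by compound), with the colour scale ending at 3 on either side. The BF and IND columns are blue over most of the synthesis block, and BA array 1 differs from BA arrays 2 and 3.

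The 18 enzymes carried most of the falls, 75 of 90, over 162 tests, with 3 rises. With BF 16 of 18 fell and with IND 16 of 18. Their median on each BF array was -1.58, -1.66 and -1.57, and on each IND array -1.33, -1.37 and -1.45, so the arrays of a compound lay close together. On BaP arrays it was -0.56 on each, on NP arrays -0.39, -0.37 and -0.39, and on 3MC arrays -0.04, -0.01 and -0.03. BA array 1, at 0.06, was outside the other BA arrays, at -0.95 and -0.98. Against the shares of all genes that fell, given above, enzymes that fell numbered 8 of 18 with BaP and with BA (12 of 18 with BA without array 1), 7 with DBA, 6 with CHR and with PH, 5 with NP and 3 with 3MC.

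HMGCS1, the cytosolic synthase that makes HMG-CoA ahead of mevalonate, fell with 8 of 9 compounds. On the IND arrays it stood at -2.74, -2.73 and -2.71, a mean of -2.73 ± 0.015 (SD, n = 3; adjusted p = 6.21e-08) or 6.62-fold lower. The BF arrays gave -2.37, -2.35 and -2.20, with a mean of -2.31 ± 0.095 (SD, n = 3; adjusted p = 4.65e-11). BF and IND arrays lay below the arrays of the other 7 compounds without overlap. DBA gave -1.31, -1.41 and -1.43, with a mean of -1.38 ± 0.065 (SD, n = 3; adjusted p = 5.26e-07), and BaP gave -1.21, -1.22 and -1.23, with a mean of -1.22 ± 0.01 (SD, n = 3; adjusted p = 1.40e-06). PH gave -0.77, -0.91 and -0.75, with a mean of -0.81 ± 0.089 (SD, n = 3; adjusted p = 2.47e-04). These arrays of DBA, BaP and PH were all low, with PH above the other pair. NP (-0.79 ± 0.039) and CHR (-0.65 ± 0.075) also lowered it, while 3MC at -0.56 ± 0.025 missed the fold threshold. BA arrays were at 0.36, -1.21 and -1.20, a mean of -0.68 ± 0.90 with array 1 and -1.20 without it. The other probe of HMGCS1, whose mean log2 intensity with DBA was 7.15 against 8.69 for the first, gave -3.70 with BF and -2.65 with IND, but -0.06 with DBA, -0.10 with 3MC and -0.23 with NP. With the mean of both probes the call with NP was lost, at -0.51.

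MVD, the decarboxylase that ends the mevalonate steps, had the lowest ratio of the 28 members with BF and with CHR. BF arrays were at -3.39, -3.39 and -2.92, a mean of -3.23 ± 0.27 (SD, n = 3; adjusted p = 5.64e-13) or 9.41-fold lower, and CHR arrays at -1.57, -2.06 and -2.15, with a mean of -1.92 ± 0.31 (SD, n = 3; adjusted p = 5.53e-09). All 6 of these arrays lay under the 3 NP arrays, at 0.64, 0.56 and 0.61, where MVD rose with a mean of 0.60 ± 0.042 (SD, n = 3; adjusted p = 0.00682). That rise sat near the fold threshold and was lost without NP array 1, at 0.58, and under median centring. BA arrays were at 0.05, -1.33 and -1.39, with a mean of -0.89 ± 0.81 (SD, n = 3; adjusted p = 4.46e-04), and -1.36 without array 1. IND lowered MVD too (-1.62 ± 0.094). With BaP (-0.21) and PH (-0.14) MVD was not called, and there its DMSO level was dim, above background on 2 of 3 arrays. Its DMSO level relative to the array median ran from -3.08 on BaP arrays to 1.92 on IND arrays, and the part of this in the ratios was not tested.

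Between these steps, the kinases MVK and PMVK, which phosphorylate mevalonate and phosphomevalonate, parted from HMGCS1. MVK fell with BF (-1.14 ± 0.052) and with CHR, where arrays were at -0.51, -1.22 and -1.19, with a mean of -0.97 ± 0.40 (SD, n = 3; adjusted p = 2.57e-09). CHR array 1 was the highest of the 3. The other probe of MVK gave -4.18 with BF, -1.48 with CHR and -1.53 with IND, and with the mean of both probes MVK was called with IND too (-0.98). PMVK rose with BaP, at 1.07, 1.13 and 1.10, with a mean of 1.10 ± 0.027 (SD, n = 3; adjusted p = 6.04e-14), all above the BF arrays, whose mean was -0.25 with no call. PMVK fell with no compound, and among the enzymes it was the only such member.

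IDI1, which isomerises isopentenyl diphosphate, fell with 6 compounds. IND arrays were at -1.78, -1.93 and -2.01, with a mean of -1.91 ± 0.11 (SD, n = 3; adjusted p = 2.69e-07). BF lowered it by a similar amount (-2.09 ± 0.31). BaP arrays were at -0.97, -1.03 and -0.75, with a mean of -0.92 ± 0.15 (SD, n = 3; adjusted p = 1.44e-07), and PH arrays at -0.70, -0.68 and -0.74, with a mean of -0.71 ± 0.031 (SD, n = 3; adjusted p = 7.24e-06). The BaP arrays spread more than the PH arrays and did not overlap them, though BaP array 3 lay next to the lowest PH array. DBA gave -0.70 ± 0.037, and 2 other compounds, 3MC and CHR, gave no call. NP at -0.58 stood just short of the threshold and passed it without NP array 1 (-0.59) or array 3 (-0.62). BA arrays were at -0.35, -1.12 and -1.14, with a mean of -0.87 ± 0.45 (SD, n = 3; adjusted p = 2.37e-06), or -1.13 without array 1.

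FDPS, which joins these units into farnesyl diphosphate, fell with 4 compounds: BF (-1.88 ± 0.027), IND (-1.52 ± 0.24), PH (-0.63 ± 0.063) and BA. Its BA arrays were at -0.22, -1.29 and -1.25, with a mean of -0.92 ± 0.61 (SD, n = 3; adjusted p = 5.36e-06), and -1.27 without array 1. FDFT1, which makes squalene, was the lowest member with PH, at -1.01, -0.98 and -0.95, with a mean of -0.98 ± 0.03 (SD, n = 3; adjusted p = 6.88e-06). It fell as well with BF (-1.35 ± 0.22) and IND (-1.55 ± 0.062), and with BA once array 1 was left out (-1.01). ACAT2, the cytosolic thiolase that makes acetoacetyl-CoA, fell with 6 compounds, between -1.58 with BF and -0.60 with PH. The call with PH was lost without PH array 1 (-0.58) or array 2 (-0.57). With the mean of its probes ACAT2 was not called with PH (-0.50) and was called with NP (-0.71).

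SQLE, the epoxidase that commits squalene to sterols, fell with 8 of 9 compounds. NP arrays were at -1.53, -1.53 and -1.64, with a mean of -1.57 ± 0.06 (SD, n = 3; adjusted p = 2.13e-10), close to BF (-1.63 ± 0.055) and IND (-1.56 ± 0.058). 3MC arrays, at -0.67, -0.56 and -0.68, with a mean of -0.64 ± 0.068 (SD, n = 3; adjusted p = 1.16e-04), all lay above the NP arrays. BA arrays were at -0.13, -1.15 and -1.19, with a mean of -0.82 ± 0.60 (SD, n = 3; adjusted p = 1.36e-05), or -1.17 without array 1. CHR at -0.44 was not called, and the call with PH (-0.62) was lost without PH array 1 (-0.57).

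LSS, which folds the epoxide into lanosterol, likewise fell with 8 compounds, PH being the exception (-0.10). BF arrays were at -2.06, -2.23 and -2.19, with a mean of -2.16 ± 0.089 (SD, n = 3; adjusted p = 8.27e-09). DBA arrays were at -1.69, -1.63 and -1.53, with a mean of -1.62 ± 0.079 (SD, n = 3; adjusted p = 1.93e-06), and NP arrays at -1.54, -1.69 and -1.55, with a mean of -1.59 ± 0.086 (SD, n = 3; adjusted p = 1.41e-06). DBA and NP arrays overlapped, above BF and below 3MC, whose arrays were at -0.56, -0.88 and -0.68, with a mean of -0.71 ± 0.16 (SD, n = 3; adjusted p = 0.00954). BaP gave -1.26, -1.13 and -1.06, with a mean of -1.15 ± 0.10 (SD, n = 3; adjusted p = 7.64e-05), and CHR gave -0.997, -1.12 and -1.12, with a mean of -1.08 ± 0.071 (SD, n = 3; adjusted p = 1.52e-04), which overlapped. On BA arrays LSS was at 0.71, -1.23 and -1.33, with a mean of -0.62 and, without array 1, -1.28. The 3MC call was lost without 3MC array 2 (-0.62). Another bright probe of LSS gave -2.32 with BF and -1.14 with BaP but -0.27 with NP and 0.10 with 3MC, and with the mean of the probes LSS was not called with NP (-0.45) or 3MC (-0.03).

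**Figure D3:**
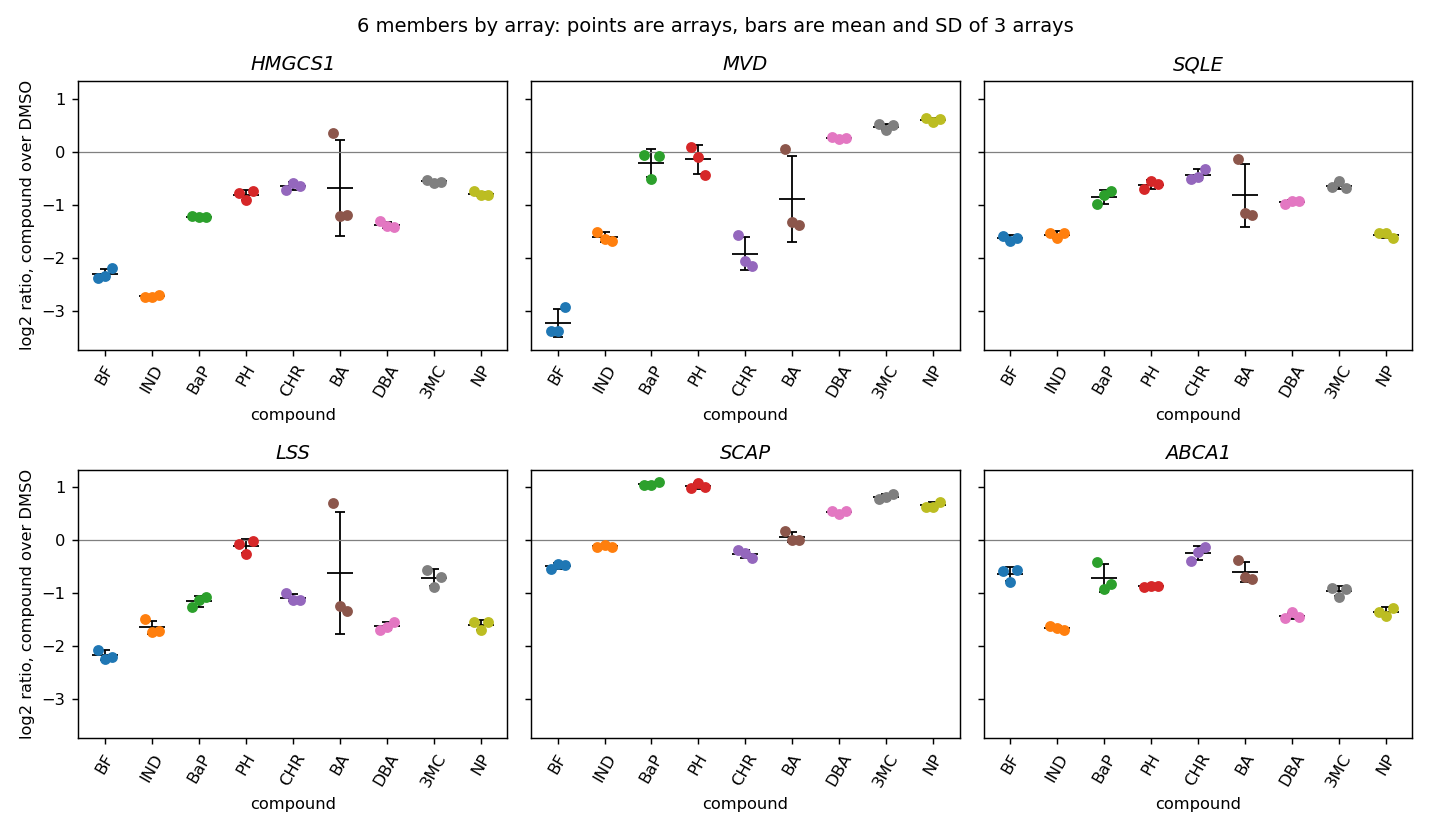
Log2 ratio of compound over DMSO (y axis) for 6 members on each array (points) with the mean and SD of the 3 arrays (bars) for each compound. HMGCS1 is lowest with IND and BF, and BA array 1 lies above the other BA arrays in members such as HMGCS1.

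Past lanosterol, BF and IND lowered most steps and the other compounds fewer. MSMO1, the C4-methylsterol oxidase, fell with BF (-1.07 ± 0.02), IND (-1.03 ± 0.044), BaP (-0.79 ± 0.073), DBA, NP and 3MC. NP arrays were at -1.24, -1.25 and -1.07, with a mean of -1.19 ± 0.10 (SD, n = 3; adjusted p = 1.86e-15). DBA arrays were at -1.05, -0.99 and -1.08, with a mean of -1.04 ± 0.048 (SD, n = 3; adjusted p = 5.95e-14), and 3MC arrays at -0.86, -0.83 and -0.77, with a mean of -0.82 ± 0.044 (SD, n = 3; adjusted p = 1.36e-12). All 9 of these arrays lay below those of PH (-0.08), CHR (0.12) and BA (-0.06). The lanosterol demethylase CYP51A1 fell with NP (-1.06 ± 0.04), DBA (-0.94 ± 0.023) and IND (-0.71 ± 0.065), and was not called with BF (-0.32) or BaP (-0.43). Its other probe gave -0.79 with BF and -1.03 with BaP, and with the mean of both probes the fall with BaP was called (-0.73).

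NSDHL, which works with MSMO1 to strip the C4 methyl groups, fell with BF, at -2.37, -2.25 and -2.14, with a mean of -2.25 ± 0.11 (SD, n = 3; adjusted p = 1.98e-15), and with IND (-0.93 ± 0.041), as well as with BA without array 1 (-0.81). BaP at -0.57 fell short and passed without BaP array 2 (-0.60). The ketoreductase HSD17B7, which has a near-identical pseudogene that a probe may also bind, fell with BF (-1.01 ± 0.12) and IND (-0.68 ± 0.069), as did the reductase TM7SF2 (-1.07 ± 0.039 and -1.20 ± 0.062) and the desaturase SC5D (-0.82 ± 0.069 and -1.41 ± 0.008). TM7SF2 was on the other side of 0 with BaP (0.57, no call; 0.59 and called without BaP array 1), and its other probe gave -2.86 with BF. SC5D fell also with BA without array 1 (-0.76). The other SC5D probe gave -1.44 with NP, -0.85 with DBA and -0.80 with 3MC, and with the mean of both probes SC5D was called with NP (-0.94) and DBA (-0.59).

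EBP, the sterol isomerase, fell with 5 compounds. BaP arrays were at -0.81, -0.83 and -1.34, with a mean of -0.99 ± 0.30 (SD, n = 3; adjusted p = 2.49e-07), with array 3 the lowest. BF (-1.76 ± 0.024) and IND (-1.19 ± 0.051) went lower, and CHR (-0.77 ± 0.042) and BA (-0.61 ± 0.55; -0.93 without array 1) were nearer to DMSO. DHCR7, whose product is cholesterol, moved both ways. IND arrays were at -1.66, -1.70 and -1.78, with a mean of -1.71 ± 0.06 (SD, n = 3; adjusted p = 2.03e-07), and BF gave -2.09 ± 0.031. CHR arrays were at -0.75, -0.995 and -0.97, with a mean of -0.91 ± 0.13 (SD, n = 3; adjusted p = 1.02e-05). With PH DHCR7 rose (0.66 ± 0.13), while with BaP it fell (-0.60 ± 0.011), and with BA it fell once array 1 was left out (-1.001).

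**Figure D4:**
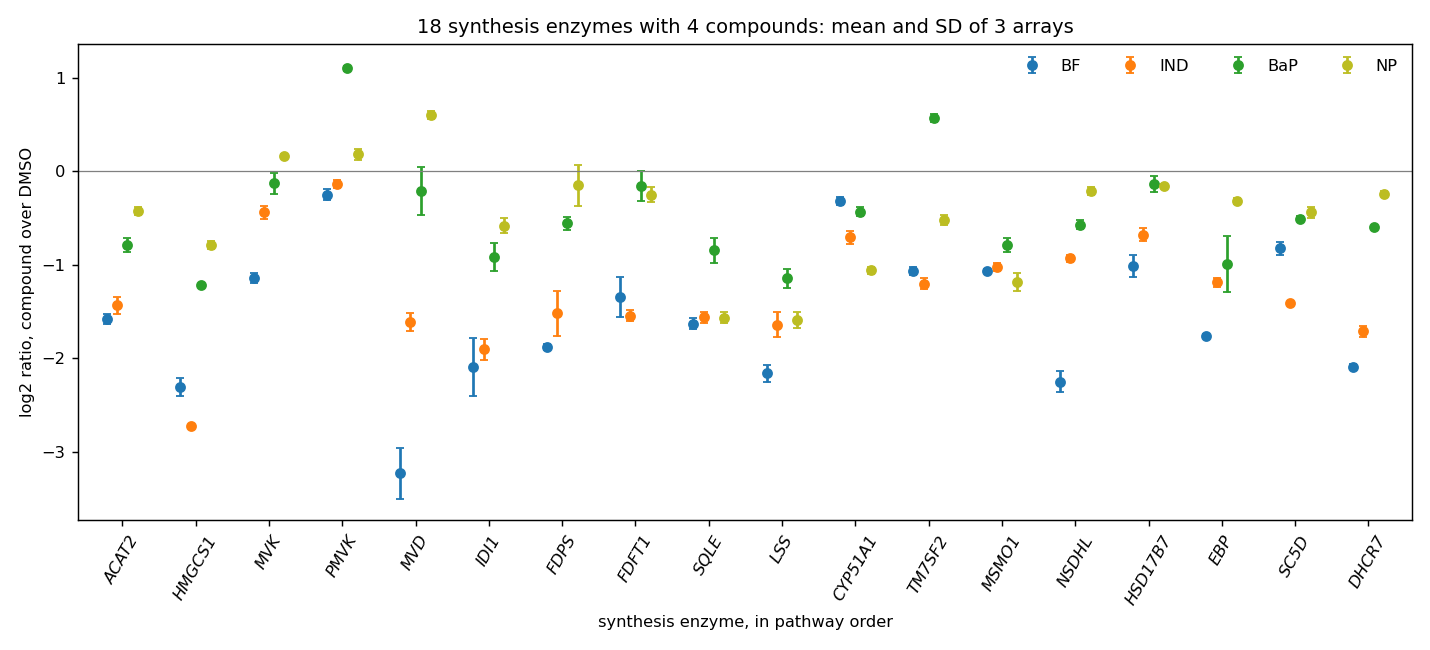
Log2 ratio of compound over DMSO (y axis) of the 18 synthesis enzymes in the order of the pathway (x axis) with BF, IND, BaP and NP, as the mean (point) and SD (bar) of 3 arrays. The BF and IND points lie below those of BaP at most steps, and at PMVK they lie near 0, at -0.25 and -0.14.

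The 4 genes of sterol sensing moved in both directions. SCAP, the SREBP escort, rose with 4 compounds and fell with none. PH arrays were at 0.99, 1.09 and 1.01, with a mean of 1.03 ± 0.055 (SD, n = 3; adjusted p = 1.46e-14). 3MC arrays were at 0.77, 0.81 and 0.88, with a mean of 0.82 ± 0.051 (SD, n = 3; adjusted p = 9.88e-13), and NP arrays at 0.64, 0.64 and 0.73, with a mean of 0.67 ± 0.054 (SD, n = 3; adjusted p = 1.11e-11). Within each compound the arrays lay close together, and the NP arrays were below the 3MC and PH arrays. BaP raised it as well (1.07 ± 0.033), while BF was at -0.48 with no call. Under median centring the call with NP was lost (0.43) and DBA gained one (0.77).

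SREBF2 rose with PH, at 0.84, 0.83 and 0.78, with a mean of 0.82 ± 0.036 (SD, n = 3; adjusted p = 1.11e-05), and fell with BF (-1.24 ± 0.029) and CHR (-0.78 ± 0.44). With CHR array 1, at -0.26, lay apart from array 2, at -1.06, and from array 3 beside it. A second probe gave 0.09 with PH, -2.70 with BF and -0.91 with CHR, and with the mean of both probes the rise with PH was not called (0.45). INSIG1 and INSIG2, which retain SCAP, fell with NP and were not called with the other compounds tested. For IND the other INSIG2 probe gave 0.34 against -0.47. INSIG1 was at -0.87, -1.10 and -0.68 on the NP arrays, with a mean of -0.89 ± 0.21 (SD, n = 3; adjusted p = 1.39e-07), and INSIG2 at -0.75, -0.83 and -0.85, with a mean of -0.81 ± 0.054 (SD, n = 3; adjusted p = 1.06e-08). With PH INSIG1 at 0.54 had no call, and passed without PH array 3 (0.80). INSIG1 was not above background in either dye on the CHR and BF arrays, and was on 1 of 3 BA arrays.

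For uptake and transport, changes were few. NPC1L1, the transporter that takes up sterols at the cell surface, rose with 3 compounds. BaP arrays were at 1.19, 1.09 and 1.20, with a mean of 1.16 ± 0.064 (SD, n = 3; adjusted p = 3.62e-13). 3MC arrays were at 0.81, 0.88 and 0.97, with a mean of 0.89 ± 0.081 (SD, n = 3; adjusted p = 1.01e-10), and CHR arrays at 0.79, 0.65 and 0.71, with a mean of 0.72 ± 0.072 (SD, n = 3; adjusted p = 1.30e-09). All 9 arrays lay above the BF arrays, where NPC1L1 fell (-0.87 ± 0.038). These rises rest on 1 probe, since the other gave -0.19 with BaP, 0.04 with 3MC and -1.17 with CHR. With the mean of both probes the calls with BaP (0.49) and 3MC (0.46) were lost and the ratio with CHR turned to -0.23.

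NPC1, which exports cholesterol from late endosomes, fell with BF (-0.72 ± 0.056) and was between -0.18 and 0.28 elsewhere. STARD4, a cytosolic sterol carrier, fell with IND (-0.62 ± 0.085) and otherwise lay between -0.42 and 0.20. MYLIP, a ubiquitin ligase that marks lipoprotein receptors for degradation, rose with BaP (0.66 ± 0.05) and with no other compound, the means running from -0.49 with PH to 0.53 with NP.

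Of the efflux pumps only ABCA1 was called. ABCA1, which loads cholesterol onto apolipoprotein A-I, fell with 8 of 9 compounds. IND arrays were at -1.61, -1.66 and -1.70, with a mean of -1.65 ± 0.044 (SD, n = 3; adjusted p = 1.95e-07). DBA arrays were at -1.46, -1.36 and -1.44, with a mean of -1.42 ± 0.056 (SD, n = 3; adjusted p = 3.23e-12), and NP arrays at -1.34, -1.43 and -1.27, with a mean of -1.35 ± 0.083 (SD, n = 3; adjusted p = 2.81e-12). DBA and NP overlapped, and the arrays of both lay above those of IND. 3MC arrays were at -0.90, -1.06 and -0.91, with a mean of -0.95 ± 0.09 (SD, n = 3; adjusted p = 1.38e-09), and PH arrays at -0.88, -0.85 and -0.86, with a mean of -0.86 ± 0.013 (SD, n = 3; adjusted p = 4.03e-09). These 2 sets of arrays were close. BaP gave -0.71 ± 0.27, BF -0.64 ± 0.13 and BA -0.59 ± 0.19 (-0.70 without array 1), and CHR was at -0.24 with no call. The BF call was lost without BF array 2 (-0.56).

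Another probe of ABCA1, whose mean log2 intensity with DBA was 6.11 against 8.74 for the first, gave 0.04 with DBA, 0.11 with 3MC and 0.09 with NP but -2.56 with BF. With CHR that probe gave -0.77, at a mean log2 intensity of 11.2, and the remaining, dimmer probe gave -0.50. With the mean of its probes ABCA1 was not called with DBA (-0.44), 3MC (-0.14), NP (-0.47) or BA (-0.32). ABCG1, the pump that passes cholesterol to HDL, was the 1 member called with no compound. Its ratios ran from -0.24 to 0.29 over the arrays, and it stood above background in neither dye on the BF arrays. ABCG1 was dim throughout, with a DMSO level from -3.82 (IND) to -1.01 (DBA) relative to the array median. In the DMSO channel it was above background on 0 of 3 arrays with CHR, BF and IND. A flat ratio at such levels cannot show whether ABCG1 responded.

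Whether the response depends on the compound was tested across the 8 compounds of the shared platform. In limma's F test 27 of 28 members differed among compounds, ABCG1 being the exception, against 89.8% of all genes. Then 6 pairs of compounds were compared, with p-values adjusted over all genes and pairs together.

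BaP and BF are isomers with 5 rings, and 20 of 28 members were higher with BaP and 0 lower, against 21.7% and 13.5% of all genes (35.2% changed). By the adjusted p alone, with no fold threshold, 21 were higher and 0 lower, with 10930 of all 17420 genes called. MVD differed by 3.02 (95% interval 2.49 to 3.55, adjusted p = 2.62e-09), with the BaP side dim as above. NPC1L1 differed by 2.03 (95% interval 1.85 to 2.21, adjusted p = 5.05e-14), NSDHL by 1.68 (95% interval 1.42 to 1.95, adjusted p = 4.41e-10) and SCAP by 1.55 (95% interval 1.42 to 1.67, adjusted p = 1.10e-14). Among the 8 members with no call the interval for CYP51A1 was -0.32 to 0.10 and for ABCA1 -0.30 to 0.16. That for ABCA1 is of 1 probe. Another gave -1.08 with BaP and -2.56 ± 1.31 (SD) with BF, and the remaining, dimmer probe gave -0.28 and 0.46.

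CHR and BA, isomers with 4 rings, differed in fewer members. IDI1 was higher with CHR by 0.64 (95% interval 0.33 to 0.96, adjusted p = 0.00134), SC5D by 0.75 (95% interval 0.43 to 1.08) and NPC1L1 by 1.06 (95% interval 0.88 to 1.24). The other NPC1L1 probe gave -0.90, the opposite direction. Lower with CHR were MVD, with a difference of -1.03 (95% interval -1.57 to -0.50, adjusted p = 0.00201), MVK, with -0.88 (95% interval -1.13 to -0.62), and SREBF2, with -0.66 (95% interval -1.04 to -0.28). These 3 higher and 3 lower members stood against 9.32% and 9.29% of all genes (18.6% changed). Without BA array 1, 8 members were higher with CHR and 1 lower, with 17.7% of all genes changed. FDFT1 (0.91), FDPS (0.85), ACAT2 (0.78), HSD17B7 (0.77) and SQLE (0.73) were then higher as well, and MVD (-0.56) and SREBF2 (-0.36) were no longer called. HMGCS1 was not called with all arrays, at 0.03 (95% interval -0.46 to 0.53). Without BA array 1 HMGCS1 was at 0.55 (95% interval 0.42 to 0.69, adjusted p = 2.00e-07), short of the fold threshold alone.

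**Figure D5:**
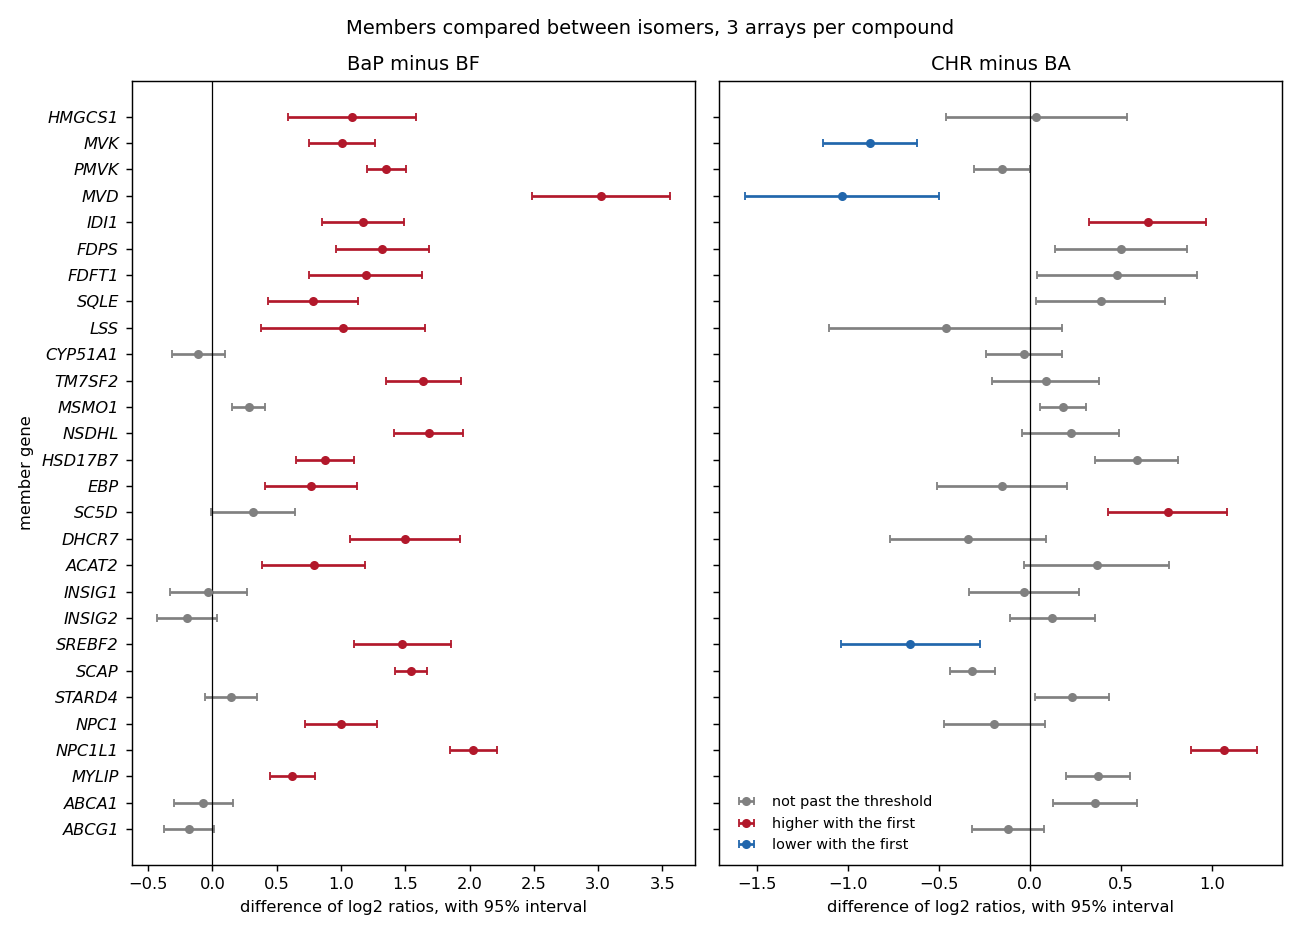
Difference of log2 ratios between the isomers BaP and BF (left) and CHR and BA (right) for the 28 members (rows), with 95% intervals, from 3 arrays per compound. For BaP minus BF 20 members lie above 0 past the threshold, and for CHR minus BA 3 lie above and 3 below.

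PH was set beside BaP, which has more rings. FDFT1 (0.82), MYLIP (1.15), NPC1L1 (0.75) and PMVK (0.64) were higher with BaP, and DHCR7 (-1.25), LSS (-1.05), MSMO1 (-0.71), EBP (-0.70) and INSIG1 (-0.61) were lower. The other NPC1L1 probe gave -0.01, and INSIG1 was dim with BaP, at a mean log2 intensity of 6.80 with both dyes above background on 3 of 3 arrays, and spread on the PH arrays (SD 0.46). That is 4 higher and 5 lower of 28, against 11.9% and 9.80% of all genes (21.8% changed). BF and CHR differ in ring number too, and 17 members were lower with BF and 0 higher, against 17.1% and 11.2% of all genes (28.3% changed). NSDHL (-1.92), IDI1 (-1.87) and HMGCS1 (-1.66) differed most. By the adjusted p alone 22 members were lower with BF and 0 higher, with 10231 of all 17420 genes called.

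Among the dim arrays, DBA was lower than 3MC in HMGCS1, with a difference of -0.82 (95% interval -1.32 to -0.33, adjusted p = 0.00672), and in LSS, with -0.91 (95% interval -1.55 to -0.28, adjusted p = 0.0175). These were 2 of 28 members, with 0 higher, against 0.941% and 1.37% of all genes (2.31% changed). Both intervals use the spread over all 24 arrays of the shared platform, which BA array 1 widened. For LSS the SD was 1.15 on the BA arrays and 0.079 on the DBA arrays. By the adjusted p alone, with no fold threshold, 12 members were lower with DBA and 1 higher, with 3848 of all 17420 genes called. Lower with DBA was 1 member without 3MC array 1, and 1 with the mean of a gene's probes, and with median centring 1 member was called, higher with DBA. Against NP, 3MC was higher in SQLE (0.93), INSIG1 (0.95), LSS (0.89), CYP51A1 (0.65) and INSIG2 (0.65). That is 5 of 28 higher and 0 lower, against 5.07% and 3.16% (8.23% changed). By the adjusted p alone 14 members were higher with 3MC and 1 lower, with 5939 of all 17420 genes called. Median centring gave 12 higher and 0 lower, and the mean of a gene's probes 3 differing members.

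Another 24 genes of the pathway, listed with earlier results known, were counted the same way. Each was read from its brightest probe alone, and other probes were not compared. With BF 11 fell and 1 rose (20.3% and 16.1% of all genes), with CHR 6 and 1 (12.2% and 11.8%), with IND 6 and 3 (13.1% and 10.4%) and with BaP 5 and 1 (10% and 15.1%). With NP 5 fell and 0 rose (12.6% and 6.73%), with DBA 4 and 0 (7.29% and 3.07%), with 3MC 3 and 0 (7.49% and 3.67%), with BA 1 and 0 (3.10% and 2.03%) and with PH 2 and 3 (7.92% and 10.6%). Their medians lay between -0.50 with BF and 0.05 with NP. They were nearer to 0 than the members' medians with BF, IND, NP, BaP, BA and 3MC, and farther from 0 with CHR (-0.29), DBA (-0.14) and PH (-0.19).

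Among those that store or release cholesterol, the esterifying enzyme SOAT2 fell with BF (-2.32 ± 0.071), CHR (-1.84 ± 0.10), IND (-1.51 ± 0.11), BaP (-1.35 ± 0.025), PH (-0.66) and BA (-0.88 ± 0.36, at -0.47 on array 1 and -1.07 and -1.10 on the others). SOAT1, the other esterifying enzyme, fell with NP (-1.39 ± 0.14), 3MC (-0.98 ± 0.046), DBA (-0.77 ± 0.071) and IND (-0.66). The lysosomal lipase LIPA fell with NP (-1.88 ± 0.12), BF (-0.80), BaP (-0.75), DBA (-0.74) and 3MC (-0.59) and rose with CHR (0.68). The lysosomal sterol carrier STARD3 fell with BF (-2.95 ± 0.069) and CHR (-0.76), as did the sterol exporter subunit ABCG8 (-2.71 ± 0.041 and -0.98). With BF ABCG8 stood above background on 1 of 3 arrays in Cy5 and on 2 of 3 in Cy3.

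SREBF1, which encodes SREBP-1, fell with IND (-1.39), BF (-1.08), CHR (-1.07) and BaP (-1.06), and TMEM97, a partner of NPC1, with DBA (-1.29), IND (-1.22), BaP (-1.20) and BF (-1.06). MBTPS1, the first of the proteases that cut SREBPs, fell with NP (-1.23), 3MC (-0.65) and DBA (-0.59). The endocytic receptor LRP1 fell with BF (-2.52), CHR (-1.14) and IND (-0.72) and rose with BaP (0.62). NR1H2, an LXR receptor, rose with PH (1.07 ± 0.024) and IND (0.80) and fell with BF (-1.18). ERG28, a scaffold of the C4-demethylation enzymes, fell with BF (-1.98), IND (-0.96), PH (-0.74 ± 0.074), BaP (-0.63) and CHR (-0.60).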

How the data were processed

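The 27 arrays measured messenger RNA of HepG2 cells, exposed cells in Cy5 against solvent control in Cy3. The deposited scanner output holds raw intensity values in both dyes for the spots and for their surroundings, with nothing subtracted or normalised. It also holds, per the file headers, how many percent of a spot's pixels were saturated. A table of log2 ratios was made by the authors, and how they normalised it is not given in the sources used here. Of its columns, 20 could be tied to spots and served as an alternative, while 7 could not and were left out. These were the columns of IND, 3MC array 3, NP array 1, CHR array 2 and BA array 3.

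Ratios were computed from the intensities in R 4.3.3 with limma 3.58.1. Tables were read and summarised in Python 3.11.15 (numpy 2.4.6, pandas 2.3.3), and figures use matplotlib 3.10.9. Control spots and those flagged at -75 or below were dropped. Normexp (offset 50) removed background and loess normalised each array, without scaling arrays to each other. Replicate spots were averaged per probe. To be tested, a probe had to exceed background by more than 2 of its SDs, in either dye, on at least 2 of 3 arrays of some compound. A gene was read from its brightest probe, and other probes of members are given where they bear on a named result. The 24 other pathway genes had 41 probes, and their other probes were not compared. IND could use another probe than the shared platform for a gene. The number of arrays limits the precision.

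In limma each compound had its own mean. The 24 arrays of the shared platform formed 1 fit and the 3 IND arrays another. For members where BA array 1 stood apart, it therefore widened the intervals and raised the p-values of the other compounds of the shared platform too. Tests were 2-sided, with Benjamini-Hochberg adjustment over every gene tested (over genes and pairs jointly for the 6 pairs), and calls needed an adjusted p under 0.05 and 1.5-fold. Array values are printed for up to 4 members with the lowest and up to 2 with the highest means among those called with each compound, and means for up to 3 other pathway genes. The members and lists were chosen with earlier results of these data known. Equal array numbers marked no pairs: residuals of arrays with the same number correlated at a mean of 0.00345, those with different numbers at -0.00142. The fit was tested on simulated log ratios. The alternatives tried were other background corrections, centring on the median, quantile scaling, no filter, the mean of a gene's probes, the adjusted p alone, a replicate block, the authors' values and leaving out each array. Dropping BA array 1 from every result was chosen after seeing the data. Some genes of this pathway are not reported here.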

Additional observations from a re-analysis of the deposited data

How the results depend on the processing

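Most counts of changed members, in either direction together, stayed within 1.5 times their value under the alternatives run, and the exceptions follow. With median centring CHR changed 4 members and BA 1, 1 member differed between DBA and 3MC (higher with DBA, so the direction turned), and 12 differed between 3MC and NP. It called 4557 of all genes with CHR, 2279 with BA, 692 between DBA and 3MC and 2076 between 3MC and NP. That centring ended 33 of the members' calls and added 9 over 250 tests. With the mean of all probes of a gene, 3MC changed 3 members, DBA and 3MC differed in 1 and 3MC and NP in 3, and NPC1L1 with CHR turned to -0.23. It ended 11 other calls and added 5. By the adjusted p alone, with no fold threshold, 20 members were changed by BaP, 16 by DBA, 12 by 3MC, 21 by NP, 20 by CHR, 20 by PH and 15 by BA, and 12 differed between CHR and BA, 13 between DBA and 3MC and 15 between 3MC and NP. Of all 17420 genes, that threshold called 11046 with BaP, 7067 with DBA, 8490 with 3MC and 10158 with NP. It called 11699 with CHR, 11220 with PH and 8261 with BA. Between compounds it called 9296 for CHR and BA, 3848 for DBA and 3MC and 5939 for 3MC and NP. With the authors' deposited values BA changed 3 members, and 3MC and NP differed in 3. These rest on fewer arrays, since BA array 3, 3MC array 3 and NP array 1 could not be tied. BA arrays 1 and 2 remained, and without BA array 3 the main values gave 4 members. How much of the drop came from the missing arrays was not tested. Leaving out 1 array at a time gave 4 to 13 members for BA, with 13 without array 1, and 1 to 2 for DBA against 3MC, with 1 without 3MC array 1. It gave 8 to 11 for PH, 13 to 14 for BaP, 10 to 11 for NP, 5 to 6 for 3MC, 19 to 20 for BF, 18 for IND and 8 for CHR and for DBA. Between compounds it gave 5 to 9 for CHR against BA, 20 for BaP against BF, 8 to 10 for BaP against PH, 4 to 6 for 3MC against NP and 16 to 18 for BF against CHR. Where no array or construction is named, the cause was not tested. With a replicate block for the array number, 224 of 224 calls of members on the shared platform were unchanged. Quantile scaling acts on average intensities and leaves the ratios as they are, so it could change no call and tests nothing here. Dropping the filter on dim spots changed none of the 250 calls. On the shared platform all 28 members had passed that filter, and the number of genes called stayed the same for each compound, so it tested little there. Signal over background limits INSIG1, ABCG1 and MVD where they were dim, and the DBA, 3MC and NP arrays.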

Other observations

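The level of the members in the DMSO channel differed between the arrays of different compounds. Relative to the array median, INSIG1 ran from -4.70 log2 units on the BA arrays to 4.29 on the NP arrays, and MVD from -3.08 on the BaP arrays to 1.92 on the IND arrays. The range of the other members lay between 1.17 for FDPS and 2.81 for ABCG1. No member was saturated in either dye.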
